A study of Mus musculus with 7 samples.

Results

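The genes of hyaluronan synthesis and turnover described here are Has1, Has2, Has3, Ugdh, Cd44, Hyal1 and Hyal2, which are 7 of the 49382 genes in the RNA-seq table of stressed mouse embryonic fibroblasts (MEFs). They were taken by gene symbol, and each symbol stood on 1 row of the table. The choice of genes was made with earlier results of these data known. The wild type MEFs were harvested from embryos of embryonic day 13.5 to 14.4 after the head and the fetal liver had been removed, taken into culture in DMEM with 10% serum, and used between passages 3 and 7. The study's methods add a sort against macrophages for most MEF work, and the labels of these libraries name none. Those methods also give a slightly later last embryonic day and, for sorted MEFs in general, a later first passage. The methods list C57BL/6J among several mouse lines without naming the one behind these libraries, and they keep embryos apart where genotyping was needed without saying whether these were pooled. All cells were plated at 10000 per cm2 in DMEM and cultured overnight. One library came from untreated control cells, whose further time in culture is not given. Each of the other 6 libraries came from 1 condition. These were 10 μM sodium arsenite for 3 h (oxidative stress), 100 mM added NaCl for 3 h (osmotic stress), 1 μM thapsigargin for 10 h (ER stress), medium lacking glucose for 10 h (glucose depletion), medium lacking glutamine for 10 h (glutamine depletion) and 0.1% oxygen for 10 h (hypoxia). Arsenite binds the thiol groups of proteins, and thapsigargin blocks the pump that fills the ER with calcium.

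Hyaluronan is a long, unbranched sugar chain of the extracellular matrix, built from glucuronic acid and N-acetylglucosamine. The synthases HAS1, HAS2 and HAS3 make it at the plasma membrane, where the enzyme joins sugars from UDP-glucuronic acid and UDP-N-acetylglucosamine and pushes the growing chain out of the cell. UGDH oxidises UDP-glucose to UDP-glucuronic acid, and HAS2 is the main synthase of many mesenchymal cells. CD44 is the main cell-surface receptor for hyaluronan. HYAL2, anchored at the cell surface, cuts long chains into fragments, and HYAL1 degrades fragments further in the lysosome. Glutamine donates the nitrogen of N-acetylglucosamine, and glucose supplies the carbon of both sugars.

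Values are TPM, a share of each library that already accounts for transcript length, so that levels can be compared between genes. A change is the difference in log2(TPM + 1) from the control library. This scale understates the change of genes near or below 1 TPM. Changes were counted where they exceeded 2-fold on it. Each condition had 1 library. No difference could therefore be set against the spread between cultures, no p-value is given, and which neighbouring levels differ beyond that spread is unknown. TPM holds no read counts, so the depth is unknown too. In bulk RNA, fewer cells of a type and less RNA per cell cannot be told apart. The 3 h conditions and the 10 h conditions share the same control library and differ in duration.

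For each treatment 1 known response gene was read, and all 6 were past 2-fold in their own library, among them Txnip, a glucose-induced gene, at 16.1 against 70.7 TPM in glucose depletion and Atf3, a stress-induced transcription factor, at 21.3 against 3.02 TPM in glutamine depletion. All 10 fibroblast markers passed 2 TPM on average. Their summed level was 9357 TPM in ER stress and between 14861 and 17459 TPM in the other 6 libraries. The macrophage markers summed to between 6.88 and 14.6 TPM, with 5 of 8 (Adgre1, Itgam, Ptprc, Aif1 and Cx3cr1) below 1 TPM in every library. Cd68, the only macrophage marker that passed 2 TPM on average, stood between 5.26 and 9.77 TPM. Csf1r and Lyz2 averaged 1.19 and 1.40 TPM. Endothelial markers summed to at most 7.31 TPM and epithelial markers to at most 11.8 TPM. Among them only Kdr (endothelial, mean 3.15 TPM) and Krt18 (epithelial, 6.27 TPM) passed 2 TPM on average. Only genes averaging 2 TPM or more over the libraries were counted, 12909 in all. Their median log2 change was -0.16 under oxidative and -0.12 under osmotic stress, and within 0.1 of 0 in the other conditions.

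Of the 7 hyaluronan genes, 5 passed that filter, namely Has2, Ugdh, Cd44, Hyal1 and Hyal2, and each of them would also have passed without its highest library. Has1 and Has3 did not pass and are described by their TPM. Ordered by mean level over the 7 libraries, Cd44 stood first at 317 TPM, then Ugdh at 262 TPM, Hyal2 at 40.3 TPM, Has2 at 27.6 TPM, Hyal1 at 7.53 TPM, Has1 at 1.15 TPM and Has3 at 0.293 TPM. The receptor and the precursor enzyme were thus far more abundant as mRNA than the synthases, Hyal1 and Hyal2. The range between libraries was wider for Has2 and Has1 than for the receptor and Hyal2. The highest library held 27.3 times the TPM of the lowest for Has2 and 22.8 times for Has1, against 2.34 times for Hyal2 and 2.48 times for Cd44. The ratio for Has1 rests on a lowest value near 0, 0.165 TPM.

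**Figure D1:**
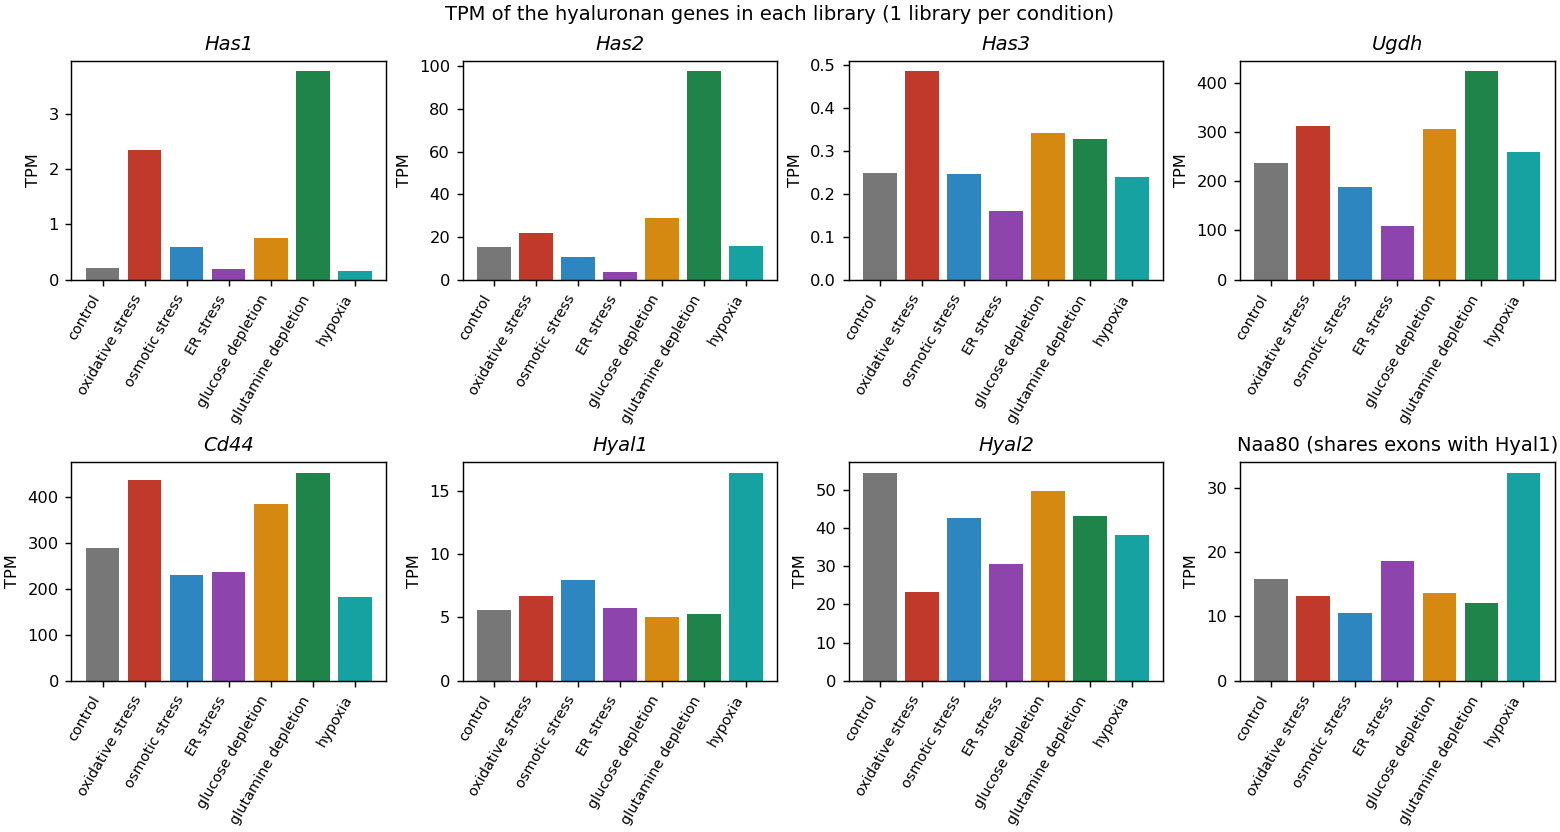
TPM of each hyaluronan gene, and of Naa80, in the 7 libraries (bars, 1 library per condition, each panel with its own axis from 0). Has2 stands at 97.5 TPM in glutamine depletion and between 3.57 and 29.1 TPM elsewhere, and Hyal1 and Naa80 are both highest in hypoxia.

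Short stretches of promoter are shown for 4 of the genes whose values are described below. Has1, Ugdh and Cd44 were chosen because they carry letters that factors of stress responses can bind. Hyal1, whose own highest value was in hypoxia, carries GC boxes, a general promoter element. Its promoter held no match to the hypoxia response core, and nothing about its value in hypoxia follows from that. The stretches come from RefSeq promoters on build GRCm38.p6, which hold 250 bases before and 50 bases after a start site. Such promoters were found for 5 of the 7 genes (Has1, Ugdh, Cd44, Hyal1 and Hyal2). Each stretch has 60 bases, lies wholly before the start site, and is written 5′ to 3′ on the strand of the gene. Capitals mark the cyclic AMP response element (CRE) TGACGTCA in Has1 (chr17:17855238-17855297, minus strand), the hypoxia response core ACGTG or GCGTG, read on either strand, in Ugdh (chr5:65435989-65436048, minus strand) and Cd44 (chr2:102901666-102901725, minus strand), and 2 overlapping GC boxes, GGGCGG on the other strand, in Hyal1 (chr9:107576847-107576906, plus strand).

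Has1: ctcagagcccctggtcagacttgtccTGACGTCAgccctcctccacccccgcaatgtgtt

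Ugdh: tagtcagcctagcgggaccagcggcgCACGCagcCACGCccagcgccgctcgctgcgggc

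Cd44: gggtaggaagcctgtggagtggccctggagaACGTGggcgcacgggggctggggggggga

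Hyal1: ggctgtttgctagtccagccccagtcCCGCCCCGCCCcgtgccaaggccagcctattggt

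The CRE of Has1 starts 83 bases before the start site, reads the same on both strands, and is held by 1.79% of the 32851 promoters in the table. Factors of the CREB and ATF family can bind such a site. The hypoxia response core is held by 43.8% of promoters and the GC box by 35.7%. The core stood in the full promoters of Ugdh (3 matches), Cd44 (1) and Hyal2 (1), and GC boxes in those of Ugdh, Cd44, Hyal1 and Hyal2. The other motifs searched on both strands were AP-1 (TGANTCA, in 7.81% of all promoters), UPRE (TGACGTGG, 0.676%), the ER stress response element (0.119%), an amino acid response element (TGATGCAA, 0.895%), the TonE core (TGGAAA, 21.4%) and TEAD (GGAATG, 14.7%). Of these, only TEAD matched, once, in the Hyal2 promoter. A match describes letters and not binding.

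Has2 had the most abundant mRNA of the 3 synthases in every library. It lies on chromosome 15 from 56665627 to 56694539 on the minus strand (GRCm38). Its level was 15.4 TPM in the control, 21.8 TPM in oxidative stress, 10.5 TPM in osmotic stress, 3.57 TPM in ER stress, 29.1 TPM in glucose depletion, 97.5 TPM in glutamine depletion and 15.6 TPM in hypoxia. Glutamine depletion therefore stood apart at the top and ER stress at the bottom, with the hypoxia library next to the control. The log2 change was 2.59 in glutamine depletion, the 105th highest of 12909 genes in that library, and -1.84 in ER stress. In the other conditions the values were 0.88 (glucose depletion), 0.47 (oxidative stress), 0.02 (hypoxia) and -0.51 (osmotic stress), all within 2-fold.

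Has1, on chromosome 17 from 17843323 to 17855205 on the minus strand, encodes a second synthase and was nearly silent in the control at 0.220 TPM. It stood at 3.76 TPM in glutamine depletion and 2.35 TPM in oxidative stress, the libraries with the highest levels. Glucose depletion gave 0.761 TPM, osmotic stress 0.590 TPM, ER stress 0.190 TPM and hypoxia 0.165 TPM. With a mean of 1.15 TPM, Has1 was below the filter and was not counted, although its log2 change was 1.96 in glutamine depletion and 1.46 in oxidative stress. Both were within 2-fold, at 0.75 and 0.49, when 5 TPM instead of 1 was added before taking logs.

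Has3, on chromosome 8 from 106870242 to 106884566 on the plus strand, stayed between 0.160 TPM in ER stress and 0.486 TPM in oxidative stress, with 0.250 TPM in the control. All 7 of its values lay below the pseudocount. Together the 3 synthases summed to 15.9 TPM in the control, 102 TPM in glutamine depletion and 3.92 TPM in ER stress. Has2 made up between 88.5% of that sum, in oxidative stress, and 97.5%, in hypoxia. The share of Has1 was 9.55% in oxidative stress, 5.19% in osmotic stress, 4.84% in ER stress, 3.70% in glutamine depletion, 2.52% in glucose depletion, 1.39% in the control and 1.03% in hypoxia.

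Has2os, a noncoding gene on the opposite strand that overlaps Has2, was between 0.799 and 2.00 TPM in all libraries. Its highest value was in glucose depletion, where Has2 was at 29.1 TPM, and it was at 1.01 TPM in glutamine depletion. The annotated exons share 182 bases, or 4.30% of the Has2 exons and 11.2% of those of Has2os. The estimates were made at default settings of kallisto, which do not use strand, so that reads from the shared bases cannot be assigned by strand.

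Ugdh, on chromosome 5 from 65413221 to 65435949 on the minus strand, encodes the enzyme that makes UDP-glucuronic acid. Its level was 236 TPM in the control, 312 TPM in oxidative stress, 188 TPM in osmotic stress, 109 TPM in ER stress, 306 TPM in glucose depletion, 422 TPM in glutamine depletion and 260 TPM in hypoxia. The highest and the lowest library were thus the same as for Has2, over a narrower range. The log2 change was -1.11 in ER stress, past 2-fold, and 0.84 in glutamine depletion, within it. The ratio of Ugdh to Has2 TPM was 15.3 in the control, 4.33 in glutamine depletion and 30.5 in ER stress.

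Cd44, on chromosome 2 from 102811141 to 102901665 on the minus strand, encodes the receptor. The TPM deposited for it is a sum over its transcripts, of which the annotation used here lists 9, so that its splice variants cannot be told apart. Its level was 290 TPM in the control, 438 TPM in oxidative stress, 232 TPM in osmotic stress, 237 TPM in ER stress, 386 TPM in glucose depletion, 454 TPM in glutamine depletion and 183 TPM in hypoxia. No condition took it past 2-fold. Its log2 changes ran from -0.66 in hypoxia to 0.65 in glutamine depletion, and in ER stress, where Has2 and Ugdh were lowest, the value was -0.29.

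**Figure D2:**
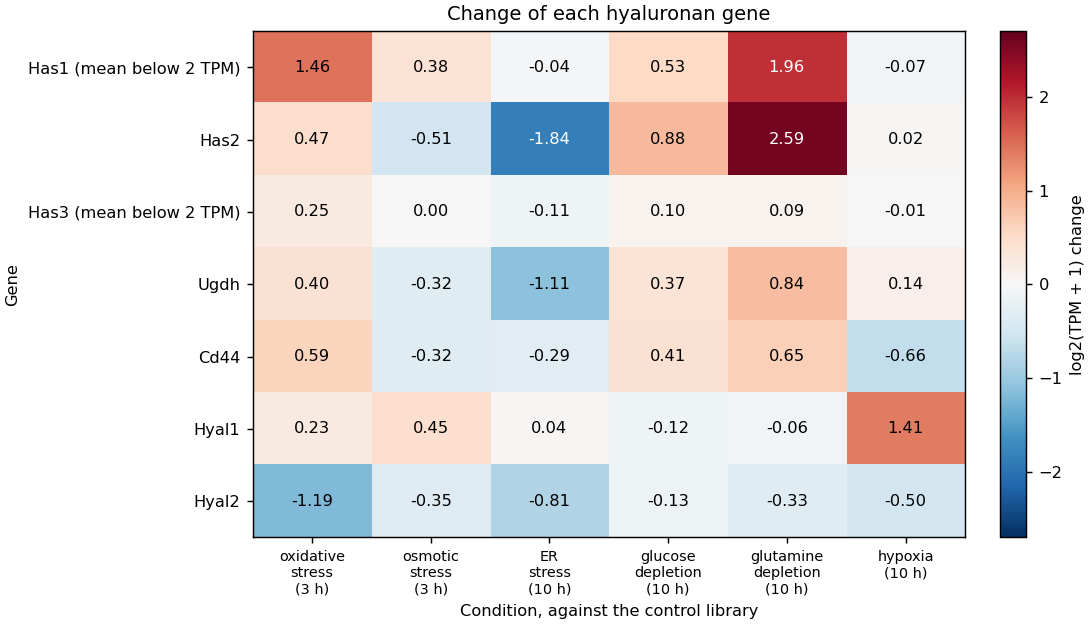
Difference in log2(TPM + 1) of each hyaluronan gene (rows) from the control library in the 6 conditions (columns, with their duration), with 1 library each. Past 2-fold (beyond 1 or -1), the genes that passed the filter are Has2 (2.59 in glutamine depletion, -1.84 in ER stress), Ugdh (-1.11 in ER stress), Hyal1 (1.41 in hypoxia) and Hyal2 (-1.19 in oxidative stress).

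Hyal2, on chromosome 9 from 107567945 to 107572779 on the plus strand, was more abundant than Hyal1 in every library. It was highest in the control at 54.5 TPM, followed by glucose depletion at 49.7 TPM, glutamine depletion at 43.0 TPM, osmotic stress at 42.6 TPM, hypoxia at 38.1 TPM, ER stress at 30.6 TPM and oxidative stress at 23.3 TPM. All 6 stress libraries thus stood below the single control library, which enters every one of these differences. The log2 change was past 2-fold in oxidative stress (-1.19) and was -0.81 in ER stress.

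Hyal1, on chromosome 9 from 107576927 to 107581710 on the plus strand, lies just downstream of Hyal2. It was at 16.4 TPM in hypoxia, where its log2 change was 1.41, the 320th highest of 12909 genes. The other values were 5.55 TPM in the control, 6.70 TPM in oxidative stress, 7.95 TPM in osmotic stress, 5.74 TPM in ER stress, 5.05 TPM in glucose depletion and 5.26 TPM in glutamine depletion. The hypoxia library was therefore alone at the top, and the ratio of Hyal2 to Hyal1 TPM was 2.32 there against 9.81 in the control.

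The Hyal1 value rests partly on exons that it shares with a neighbour. Naa80, which encodes the enzyme that acetylates the amino terminus of actin and stands in the table as Nat6, lies on the same strand, and the annotated exons of the pair share 1920 bases, 50.8% of the Hyal1 exons and 60.9% of the Naa80 exons. Naa80 went from 15.8 TPM in the control to 32.3 TPM in hypoxia, a log2 change of 0.99, and was between 10.5 and 18.5 TPM in the other 5 conditions. Its part in the Hyal1 value was not tested. Hyal3, which shares 159 exon bases with Hyal1, was at 0.518 TPM in hypoxia and between 0.112 and 0.398 TPM elsewhere. Hyal1 and Hyal2 share no exon bases.

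**Figure D3:**
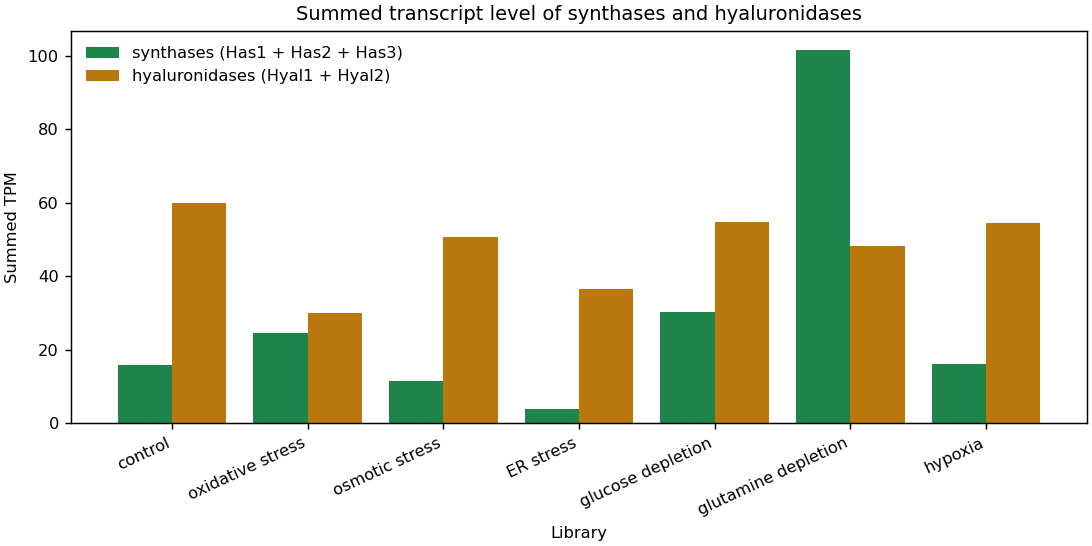
Summed TPM of the 3 synthases and of Hyal1 with Hyal2 in each library (bars, 1 library per condition). The synthases exceed the sum of Hyal1 and Hyal2 in glutamine depletion alone, 102 against 48.2 TPM (against 122 TPM with Cemip and Tmem2 added, not drawn), and are lowest in ER stress, 3.92 against 36.4 TPM.

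The sum of synthase TPM divided by that of Hyal1 and Hyal2 was 0.264 in the control. It was 2.11 in glutamine depletion, 0.820 in oxidative stress and 0.551 in glucose depletion, and 0.108 in ER stress. Osmotic stress (0.225) and hypoxia (0.294) stood close to the control. In glutamine depletion the difference from the control lay mainly in Has2. In oxidative stress it came from both sides, with Has2 at 21.8 against 15.4 TPM and Hyal2 at 23.3 against 54.5 TPM. With Cemip and Tmem2, which also act on long chains, added to Hyal1 and Hyal2, the ratio was below 1 in every library, at 0.830 in glutamine depletion, 0.247 in oxidative stress, 0.227 in glucose depletion, 0.133 in hypoxia, 0.106 in the control, 0.0905 in osmotic stress and 0.0517 in ER stress. This wider sum was chosen after the data were seen. These are ratios of mRNA and not of enzyme activity.

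The counts past 2-fold are given beside the shares of all genes. In glutamine depletion 1 of the 5 genes that passed the filter, Has2, was more than 2-fold higher, where 3.21% of all 12909 genes were higher and 3.21% lower. In ER stress 2 of 5, Has2 and Ugdh, were more than 2-fold lower, where 11.0% of all genes were lower and 8.60% higher. In hypoxia 1 of 5, Hyal1, was higher, against 3.57% of all genes higher and 2.64% lower. In oxidative stress 1 of 5, Hyal2, was lower, against 3.94% of all genes higher and 4.85% lower. None of the 5 passed 2-fold in glucose depletion (1.83% of all genes higher, 2.41% lower) or in osmotic stress (3.08% higher, 8.76% lower). The median log2 change of the 5 genes was 0.65 in glutamine depletion, where that of all genes was -0.09, and -0.81 in ER stress, where that of all genes was 0. It was 0.40 in oxidative stress, 0.37 in glucose depletion, 0.02 in hypoxia and -0.32 in osmotic stress. With 5 genes a median is the value of a single gene.

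In ER stress the summed fibroblast markers were also at their lowest, as given above, and their part in the values of Has2 and Ugdh was not tested. The share of mitochondrially encoded genes was 9.25% in oxidative stress and 6.37% in the control, and with those genes removed each count above was the same.

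Glutamine and glucose depletion lasted equally long and can be set side by side. Has2 was at 97.5 TPM without glutamine and 29.1 TPM without glucose, a log2 difference of 1.71. Ugdh differed by 0.47, Cd44 by 0.23 and Hyal1 by 0.05, all higher without glutamine, and Hyal2 by -0.21. Between the 3 h treatments, Has2 was higher in oxidative than in osmotic stress by 0.98 and Cd44 by 0.92, and Hyal2 was lower by 0.84. None of these differences has a replicate.

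The wider pathway was read from a list of 58 genes in 6 roles, of which 40 passed 2 TPM. It includes the 7 genes above. The count past 2-fold was 4 higher and 8 lower in ER stress, 3 higher in glutamine depletion, 2 higher and 1 lower in hypoxia, 2 higher and 2 lower in oxidative stress, 2 higher in osmotic stress and 1 higher in glucose depletion. In either direction this was 12 of 40 in ER stress, where 19.6% of all genes were past 2-fold, 4 in oxidative stress (8.78%), 2 in osmotic stress (11.8%), 3 in hypoxia (6.21%), 3 without glutamine (6.41%) and 1 in glucose depletion (4.24%). These counts include Hapln4 in ER stress, which passed the filter only through that library. They also include Stab1 in osmotic stress, in oxidative stress and in glucose depletion, where Stab1 was the only gene counted. Without its osmotic library Stab1 averaged 1.22 TPM, below the filter. The median log2 change of the 40 genes was -0.33 in ER stress, where that of all genes was 0, and lay between -0.09 and 0.09 in the other conditions.

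In the supply of UDP-sugars, 2 of 12 genes were past 2-fold higher and 2 lower in ER stress. Of all genes, 8.60% were higher and 11.0% lower there. Along the route to UDP-N-acetylglucosamine, Gnpnat1, which acetylates glucosamine 6-phosphate, went from 24.6 to 125 TPM (log2 change 2.30), and Gfpt1, the rate-limiting enzyme that takes nitrogen from glutamine, from 46.6 to 113 TPM (1.26). Pgm3 and Uap1, the next steps of that route, had values of 0.99 and 0.57, and Nagk, which salvages N-acetylglucosamine into that route, -0.21, all within 2-fold. Along the route to UDP-glucuronic acid, Ugdh was past 2-fold lower as given above, and Ugp2, which makes UDP-glucose, was at 58.6 against 81.5 TPM (-0.47), within it. Slc35d1, which carries UDP-sugars into the ER, was at 4.49 against 12.9 TPM in ER stress (-1.34) at 33.8 TPM in osmotic stress (1.33) and at 5.32 TPM in hypoxia (-1.13).

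Gfpt2, the second glutamine-using enzyme of the hexosamine route, was at 8.51 TPM in the control, 30.7 TPM in oxidative stress and 29.2 TPM in glutamine depletion (log2 changes 1.74 and 1.67). It was at 17.01 TPM in ER stress and between 9.28 and 13.0 TPM in the other conditions. Oxidative stress and glutamine depletion were also the highest libraries, in the opposite order, of Ugdh, of Cd44 and of Has1, which did not pass the filter. Pgm2, a phosphoglucomutase, went from 39.7 to 211 TPM in hypoxia (2.38) and was between 30.4 and 43.0 TPM elsewhere.

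Among the genes of degradation, ER stress held Gusb, the lysosomal beta-glucuronidase that trims hyaluronan fragments, at 28.5 against 82.8 TPM in the control (log2 change -1.51). Tmem2, a cell-surface hyaluronidase, was at 3.77 against 14.4 TPM (-1.69). Cemip, a protein needed for hyaluronan breakdown by skin fibroblasts, was at 35.8 against 74.8 TPM (-1.04). It was the most abundant of the 3 genes that act on long chains, above Hyal2 in every library. Of the 7 degradation genes that passed the filter, 3 were lower past 2-fold in ER stress, where 11.0% of all genes were, and Hyal2 was at -0.81. Outside ER stress, only Hyal2 in oxidative stress and Hyal1 in hypoxia were past 2-fold in this role. Hexa, which encodes a lysosomal enzyme, stayed within 2-fold in every condition. Hyal4 and Spam1 are listed at 0 in all libraries.

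Of the other receptors, Layn, a membrane protein that binds hyaluronan, went from 65.7 TPM in the control to 18.4 TPM in ER stress (log2 change -1.78). Hmmr, a hyaluronan-binding protein of the mitotic spindle, was at 32.5 TPM in the control and within 2-fold throughout. Stab1, a scavenger receptor of endothelium and macrophages, was at 0.452 TPM in the control, 7.49 TPM in osmotic stress, 3.29 TPM in glucose depletion and 2.95 TPM in oxidative stress. It passed the filter only through its osmotic library, so its difference there had to follow. The macrophage markers summed to 14.6 TPM in that library and 10.7 TPM in the control, and the endothelial markers to 7.31 and 5.89 TPM. Cd68 and Kdr held the largest parts of these sums, at 9.36 and 4.23 TPM in the osmotic library. Itgam was at 0.944 TPM there against 0.0317 TPM in the control, Pecam1 at 1.02 against 0.223 TPM and Csf1r at 2.25 against 1.43 TPM. Aif1 went the other way, at 0 against 0.423 TPM, and Ptprc and Cx3cr1 were at 0 in both. In glucose depletion these sums were 9.77 and 2.94 TPM, and in oxidative stress 12.1 and 4.08 TPM. The part of either cell type in the Stab1 values was not tested. Lyve1 and Stab2 were below 0.3 TPM in every library.

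Among the proteins that bind or crosslink hyaluronan, Tnfaip6, whose product TSG-6 transfers heavy chains onto hyaluronan, was at 13.2 TPM in glutamine depletion against 3.04 TPM in the control (log2 change 1.81). Its next highest value was 5.81 TPM in oxidative stress. Ptx3, a pentraxin that takes part in the hyaluronan-rich matrix around the oocyte, was at 198 TPM in the control, 484 TPM in ER stress (1.29) and 80.7 TPM in oxidative stress (-1.28). Vcan, the large hyaluronan-binding proteoglycan versican, stayed between 51.2 and 76.9 TPM, lowest in the control. Hapln4, a link protein, was at 24.0 TPM in ER stress and at most 1.36 TPM in the other libraries, and passed the filter only through its ER stress library.

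Of the partners of CD44 and the proteases that shed it, Mmp14, a membrane-bound metalloproteinase, was past 2-fold lower in ER stress at 200.4 against 678 TPM (log2 change -1.75). Msn, which encodes moesin, a protein that links CD44 to actin, was between 359 and 634 TPM. Spp1, which encodes osteopontin, a ligand of CD44, was between 2104 and 4486 TPM, the highest level of the list, and highest in osmotic stress.

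**Figure D4:**
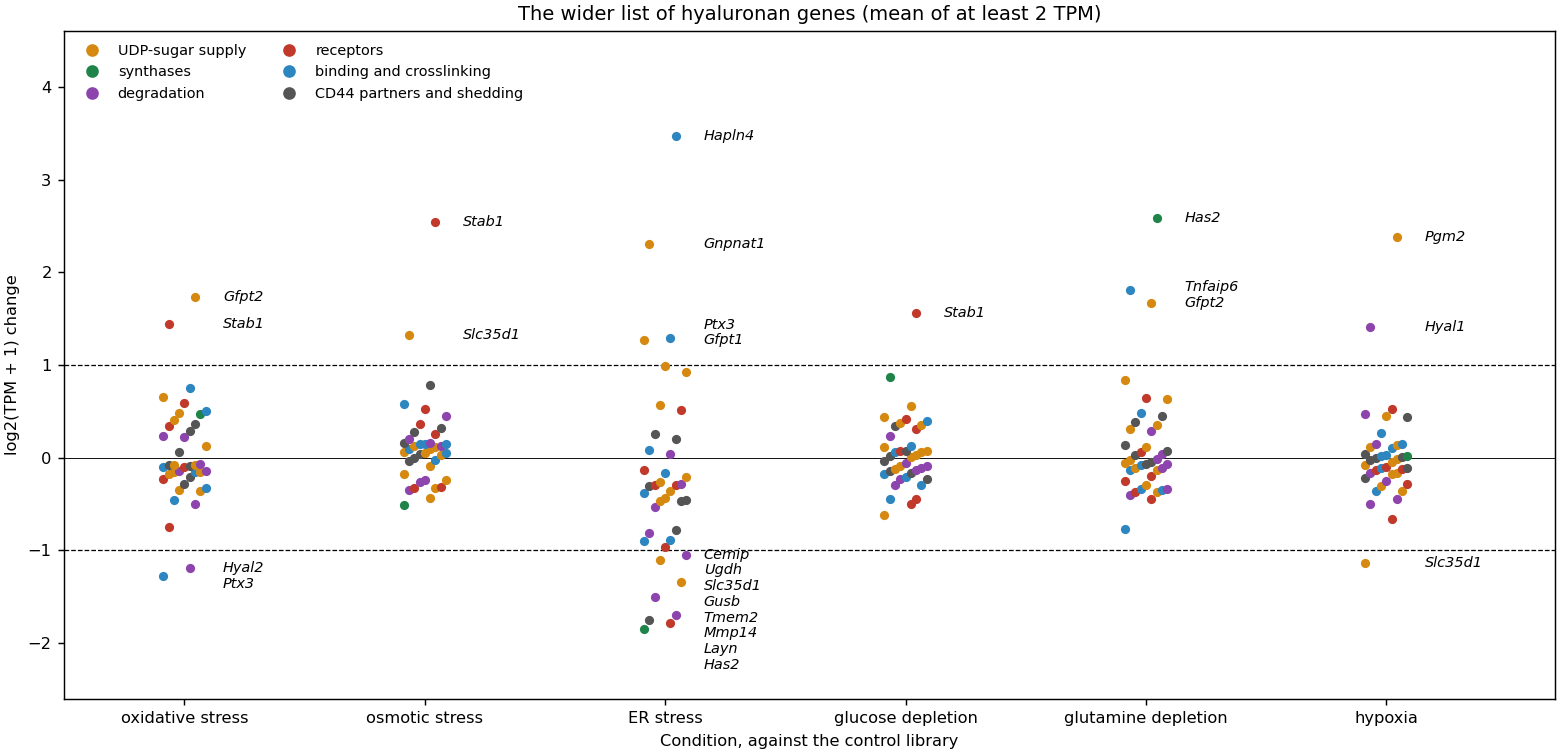
Difference in log2(TPM + 1) from the control library for the 40 genes of the wider list that averaged 2 TPM or more (points, coloured by role) in each of the 6 conditions, 1 library each. Dashed lines mark 2-fold, and the genes beyond them are named in order of their change. ER stress holds 12 of them, 4 higher, including Hapln4, which passed the filter only there, and 8 lower, where 8.60% of all genes were higher and 11.0% lower.

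Genes whose profile over the 7 libraries lay closest to that of a member were found by the root mean square difference of centred log2(TPM + 1) values, among 11429 genes. For Has2, whose profile had an SD of 1.25 log2 units, the 3 nearest included Nfatc1 (difference 0.41), which encodes a calcium-regulated transcription factor, at 61.7 TPM in glutamine depletion and 6.27 TPM in ER stress. For Ugdh they were Ldlrad4 (0.09), Tsc22d1 (0.13) and Myzap (0.13). For Cd44, the nearest was Tuba1c (0.08), an alpha-tubulin gene, then B3gnt5 (0.16) and Il1rl1 (0.17), which encodes the receptor of IL-33. For Hyal1 they were Cox7a1 (0.15), Hpse (0.16), which encodes the heparan sulfate-cleaving enzyme heparanase, and Ephb6 (0.16). For Hyal2 they were Fam150a (0.07), Taf11 (0.12) and Ska1 (0.12). With 7 libraries and so many genes, close profiles can be found for many genes, and nothing about shared control follows.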

How the data were processed

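RNA-seq of MEFs covered 7 conditions with 1 library each, and samples were grouped by the treatment in their labels. The authors quantified reads with kallisto (version 0.43.1 per the submitters' processing notes) at default settings against the GRCm38 cDNA transcripts of Ensembl release 90, and deposited gene-level TPM, each the sum of a gene's transcripts. Depth is unknown, because TPM keeps no counts, and no interval can be given.

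From the deposited TPM, log2(TPM + 1) differences from the control were taken, and genes averaging 2 TPM or more were counted past 2-fold. No test was run. The lists were, like the members, chosen with earlier results of these data known. The rule names the 7 members, Has2os, list genes past 2-fold or of high mean, 3 nearest profiles per member and a check gene per treatment. Outside that rule, other list genes, Naa80 and the neighbours named with it were chosen after their values were seen. Annotation is GENCODE M21 on GRCm38, joined by Ensembl identifier, and promoter motifs come from RefSeq. Scripts were tested on simulated data and ran in Python 3.11.15 with pandas 2.3.3 and numpy 2.4.6, and figures in matplotlib 3.10.9. Alternatives were pseudocounts of 0.1 and 5 TPM, no filter or 10 TPM, thresholds of 1.5-fold and 3-fold, centring on the median, leaving out mitochondrially encoded genes, and protein-coding genes alone as the background. The sum with Cemip and Tmem2 was added after the data were seen. Protein sequences were not analysed here, and some genes that the rule would name are not reported here.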

Additional observations from a re-analysis of the deposited data

How the results depend on the processing

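Centring on the median of all genes and removal of mitochondrially encoded genes moved no count of members past 2-fold by over 1.5 times, nor did either pseudocount. Centring turned the sign of 3 values near 0, to 0.12 for Has3 in osmotic stress, 0.04 for Has3 in hypoxia and 0.02 for Hyal1 in glutamine depletion. With no filter, which admits Has1, 1 member was higher in oxidative stress and 2 in glutamine depletion. A mean of at least 10 TPM leaves out Hyal1, and 0 were then higher in hypoxia. At 1.5-fold, 1 member was higher in oxidative stress, 1 without glucose and 3 without glutamine, and 1 was lower in hypoxia. At 3-fold, 0 were lower in oxidative stress and 1 in ER stress, and 0 were higher in hypoxia.

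The wider list gave, in either direction, 0 genes in glucose depletion with a pseudocount of 5 TPM, and 1 in osmotic stress and 0 in glucose depletion at a mean of at least 10 TPM. At 1.5-fold it gave 8 in oxidative stress, 19 in ER stress, 3 in glucose depletion and 7 in glutamine depletion, and at 3-fold 1, 6 and 0 in the first 3 of these, 1 in osmotic stress and 1 in hypoxia.

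The share of all genes past 2-fold in either direction moved most, and is given here for oxidative stress, osmotic stress, ER stress, glucose depletion, glutamine depletion and hypoxia in this order. It was 4.49%, 5.17%, 11.8%, 2.61%, 3.35% and 3.88% with a pseudocount of 5 TPM, 3.88%, 4.96%, 7.20%, 2.45%, 2.95% and 3.10% with no filter, and 23.5%, 26.1%, 40.2%, 9.70%, 18.1% and 15.3% at 1.5-fold. At 3-fold it was 3.90%, 5.02% and 7.69% in the first 3, 2.88% in glutamine depletion and 3.59% in hypoxia. At a mean of at least 10 TPM it was 5.47% in oxidative and 6.71% in osmotic stress, 1.79% without glucose, 4.04% without glutamine and 3.48% in hypoxia. Among protein-coding genes alone it was 5.25% in oxidative stress, 1.04% without glucose, 3.75% without glutamine and 2.95% in hypoxia. The values of Has1 lay near the pseudocount, and its log2 change was 1.11 in osmotic stress and 1.43 in glucose depletion with 0.1 TPM.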
